A study of Homo sapiens with 34 samples.

Results

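Endoderm medium was given on day 2 to cells that had been taken on day 1 to either end of the anterior-posterior axis of the primitive streak (PS), and the 2 outcomes, PPS-DE(b) and DE(a)-DE(b), were compared across all genes. The comparison rests on 4 of the 34 RNA sequencing libraries of the series, 2 replicates of each condition, all made at 48 h from wild-type ESI017 cells, which are 1 established human embryonic stem cell line kept in mTeSR Plus on Matrigel. On day 1 the DE(a) cells, the start of the standard endoderm protocol, received activin A at 100 ng/ml with the GSK3 inhibitor CHIR99021 at 2 µM, which activates WNT signalling. The PPS (posterior PS) cells received bFGF at 20 ng/ml, BMP4 at 40 ng/ml and CHIR99021 at 6 µM, and no activin. On day 2 both received the same DE(b) medium, with activin A at 100 ng/ml and the BMP receptor inhibitor LDN-193189 at 250 nM. The question the design puts is how far cells with a posterior start differ from standard endoderm once activin is supplied. The 24 h libraries of the same 2 day 1 treatments, 2 each, give the state from which day 2 began, and the DE(b) libraries that began as APS or MPS, the anterior and the middle PS, are given beside them as levels. APS cells had received activin A at 30 ng/ml, bFGF at 20 ng/ml and CHIR99021 at 4 µM, and MPS cells the same activin A and bFGF with BMP4 at 40 ng/ml and CHIR99021 at 6 µM.

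In the embryo, cells leave the epiblast through the PS, and where and when they do so is tied to their fate. Cells of the anterior streak, under high Nodal (for which activin stands in culture) give definitive endoderm, prechordal plate and axial mesoderm, while those of the middle and posterior streak, under WNT and BMP, give presomitic, lateral plate and extra-embryonic mesoderm. HOX genes are switched on during the same period, in an order that follows their place in each cluster, and their expression marks how posterior a cell is.

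Estimated counts summed to between 16494711 and 20808544 per library over the 4 libraries. Levels are given as CPM, the count of a gene scaled to its library's total (counts per 1000000), always replicate 1 before replicate 2, and they are not corrected for gene length. Fold changes are PPS-DE(b) over DE(a)-DE(b) on the log2 scale, with an approximate standard error (SE) and the Benjamini-Hochberg adjusted p of edgeR's quasi-likelihood test. The SE was computed as the absolute log2 fold change over the square root of the F statistic of that test. The 95% intervals rest on this SE. Called genes are those whose adjusted p was under 0.05. The series text describes the replicates as biological, and each replicate number has its own deposited table. Of 17895 genes tested, 3107 (17.4%) were called, 1544 (8.63%) higher and 1563 (8.73%) lower in PPS-DE(b), and the median over all tested genes was 0.00. The change was more than 4 log2 units for 210 of the genes called higher and for 102 of those called lower. Of all 1544 genes called higher, whatever their change, 142 were at 3 counts or fewer in both DE(a)-DE(b) libraries. Each of the 3107 called genes had the direction of its fold change within the replicate 1 table and within the replicate 2 table as well, which their choice from these 4 libraries nearly fixes. Of all genes tested, 10105 (56.5%) had groups that did not overlap, which is the background for each gene described so. Gene lists, 43 in all, held 643 distinct genes that were tested, of which 169 were called higher and 87 lower, and counts and medians of each list are descriptions with no test of the list. The 17.4% called over all genes tested is the background for the count of calls in each list. In 14 lists 0 genes were called in 1 or both directions in edgeR, and there up to 3 genes of a list had an unadjusted p under 0.05 in that direction, and up to 1 were called by DESeq2. In 13 lists a count of calls in 1 direction moved by 1 gene and over 1.5 times without 1 library, and the 14 lists where it moved so by 2 or more genes are given with their counts. Without 1 of the 4 libraries the count of calls was 1563 (without PPS-DE(b) replicate 1), 1926 (without PPS-DE(b) replicate 2), 2999 (without DE(a)-DE(b) replicate 1) or 1639 (without DE(a)-DE(b) replicate 2). Among the 14788 genes that were not called, 7855 had a 95% interval of the fold change within 1 log2 unit of 0. In bulk samples, a lower level can come from fewer cells of a type or from less RNA per cell, and the 2 cannot be told apart.

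**Figure D1:**
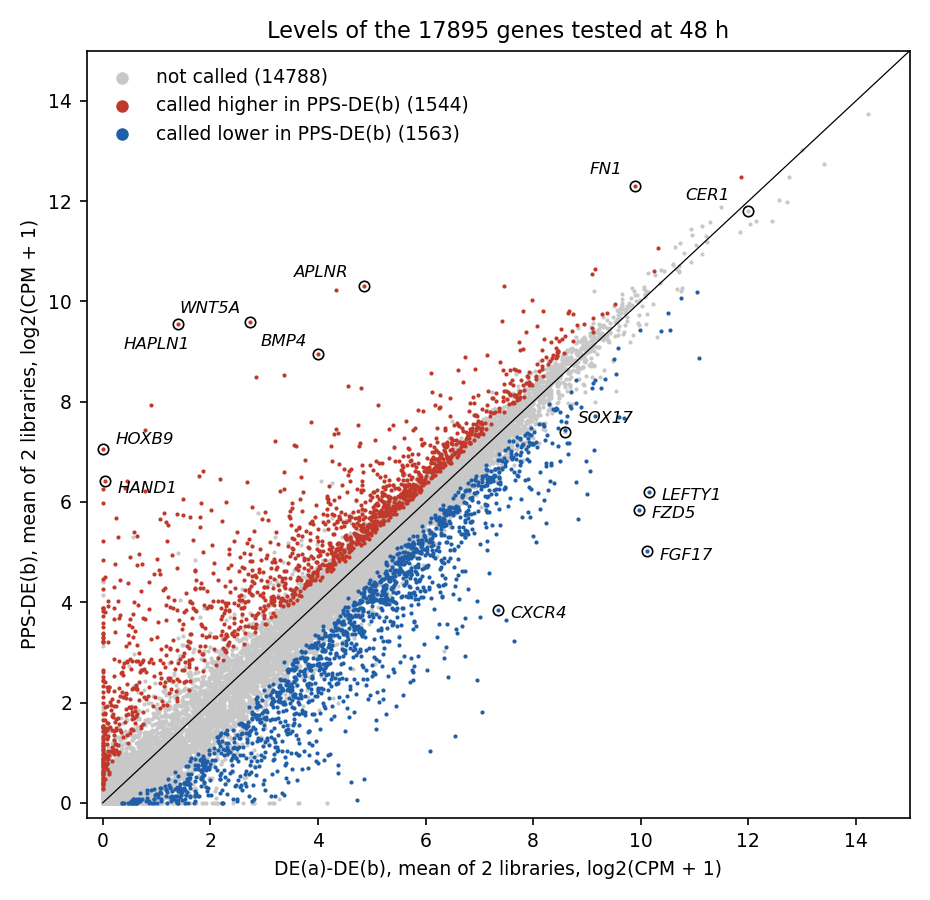
Mean level of each tested gene in the 2 DE(a)-DE(b) libraries (x axis) and in the 2 PPS-DE(b) libraries (y axis), as log2(CPM + 1), with the 1544 genes called higher in red, the 1563 called lower in blue and those not called in grey; the line marks equal levels. FN1, APLNR, WNT5A and HAPLN1 lie far above the line, LEFTY1, FZD5, FGF17 and CXCR4 far below it, and CER1 close to it.

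Definitive endoderm genes were divided. The secreted Nodal, BMP and WNT antagonist CER1 stood at 4296 and 3886 CPM in DE(a)-DE(b) and 3329 and 3856 CPM in PPS-DE(b) and was not called (log2 fold change -0.15 ± 0.54, edgeR adjusted p = 0.903). The 95% interval of its log2 fold change ran from -1.28 to 0.99. GATA4, a zinc finger factor of endoderm and of cardiac mesoderm, overlapped between the groups at 37.1 and 47.4 CPM in DE(a)-DE(b) and 36.6 and 51.3 CPM in PPS-DE(b) (edgeR adjusted p = 0.917). GATA4 is listed under a second identifier, at 69.7 and 78.3 CPM in DE(a)-DE(b) and 76.6 and 91.7 CPM in PPS-DE(b), which was not called either (edgeR adjusted p = 0.667). Other members set the groups apart. Of the 21 genes tested in the definitive endoderm list, 0 were called higher in edgeR and 12 lower, with a median log2 fold change of -1.73. CXCR4, a chemokine receptor and surface marker of endoderm, was at 168 and 154 CPM in DE(a)-DE(b) and 9.25 and 17.5 CPM in PPS-DE(b) (log2 fold change -3.55 ± 0.57, edgeR adjusted p = 1.24e-04). The receptor tyrosine kinase KIT, also used to sort endoderm, was at 181 and 179 CPM in DE(a)-DE(b) and 6.01 and 17.1 CPM in PPS-DE(b) (log2 fold change -3.93 ± 0.54, edgeR adjusted p = 2.00e-05). HHEX, a homeobox factor of anterior endoderm, liver and thyroid, had 62.5 and 84.1 CPM in DE(a)-DE(b) and 6.24 and 11.5 CPM in PPS-DE(b) (log2 fold change -3.01 ± 0.44, edgeR adjusted p = 7.80e-05). In CXCR4, KIT and HHEX both PPS-DE(b) libraries lay below both DE(a)-DE(b) libraries, and replicate 2 of PPS-DE(b) was the higher of its pair. FOXA2 (log2 fold change -3.98 ± 0.91, edgeR adjusted p = 0.00438), the apolipoprotein APOA2 (edgeR adjusted p = 0.00739) and the repressor PRDM1 (edgeR adjusted p = 0.00349) were called lower too. FOXA2 (edgeR adjusted p = 0.0826), APOA2 (edgeR adjusted p = 0.106) and PRDM1 (edgeR adjusted p = 0.0863) were not called without PPS-DE(b) replicate 1.

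Organizer and prechordal genes followed a related split. Of 16 tested, 2 were called higher and 5 lower (median -1.22). LEFTY1, a Nodal antagonist, was at 1137 and 1152 CPM in DE(a)-DE(b) and 55.8 and 88.9 CPM in PPS-DE(b) (log2 fold change -3.94 ± 0.3, edgeR adjusted p = 2.86e-08). Its neighbour and paralogue LEFTY2 was at 1134 and 1400.2 CPM in DE(a)-DE(b) and 703 and 546 CPM in PPS-DE(b) and missed the threshold (log2 fold change -0.98 ± 0.35, edgeR adjusted p = 0.0622). The homeobox gene GSC, a classical organizer gene, was at 83.5 and 108 CPM in DE(a)-DE(b) and 23.1 and 32.9 CPM in PPS-DE(b) (log2 fold change -1.73 ± 0.3, edgeR adjusted p = 3.18e-04). OTX2, a head and anterior epiblast factor, was at 327 and 344 CPM in DE(a)-DE(b) and 71.1 and 94.1 CPM in PPS-DE(b) (log2 fold change -1.98 ± 0.48, edgeR adjusted p = 0.00534). LHX1, with which it acts in the anterior mesendoderm, was at 32.9 and 48.7 CPM in DE(a)-DE(b) and 62.1 and 86.7 CPM in PPS-DE(b) and was not called (edgeR adjusted p = 0.265). Both LHX1 values in PPS-DE(b) lay above both in DE(a)-DE(b), the reverse of GSC, OTX2 and LEFTY1. LHX1 is listed under 2 identifiers, and the second, at 235 and 382 CPM in DE(a)-DE(b) and 423 and 481 CPM in PPS-DE(b), was not called either (edgeR adjusted p = 0.438). The 2 members called higher were the BMP antagonist NOG, at 0.148 and 0 CPM in DE(a)-DE(b) and 3.44 and 3.96 CPM in PPS-DE(b) (edgeR adjusted p = 1.66e-06), and the WNT antagonist DKK1. DKK1 was at 17.2 and 19 CPM in DE(a)-DE(b) and 60.5 and 46.6 CPM in PPS-DE(b) (log2 fold change 1.61 ± 0.45, edgeR adjusted p = 0.0157). OTX2 (edgeR adjusted p = 0.0911) was not called without PPS-DE(b) replicate 1. DKK1 was not called without PPS-DE(b) replicate 1 or DE(a)-DE(b) replicate 1 or 2 (edgeR adjusted p from 0.0802 to 0.115). NOG had a log2 fold change of 9.19 without DE(a)-DE(b) replicate 1.

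Pluripotency genes were lower in PPS-DE(b) in 10 of 20 tested and higher in 1 (median -0.77). NANOG was at 104 and 87.1 CPM in DE(a)-DE(b) and 10.2 and 8.67 CPM in PPS-DE(b) (log2 fold change -3.29 ± 0.5, edgeR adjusted p = 7.39e-05). SOX2 was at 47.3 and 37.9 CPM in DE(a)-DE(b) and 3.12 and 2.49 CPM in PPS-DE(b) (log2 fold change -3.87 ± 0.74, edgeR adjusted p = 7.05e-04). PRDM14, a repressor of differentiation, was at 22.4 and 22 CPM in DE(a)-DE(b) and 2.51 and 4.29 CPM in PPS-DE(b) (log2 fold change -2.67 ± 0.35, edgeR adjusted p = 1.04e-05). ZIC2 was at 301 and 316 CPM in DE(a)-DE(b) and 51.2 and 98.7 CPM in PPS-DE(b) (log2 fold change -2.0 ± 0.39, edgeR adjusted p = 9.18e-04). In all 4 genes every DE(a)-DE(b) library stood above every PPS-DE(b) library. The 1 member called higher was LIN28B, which blocks maturation of let-7 miRNAs, with 190.1 and 156 CPM in DE(a)-DE(b) and 277 and 241 CPM in PPS-DE(b) (log2 fold change 0.62 ± 0.13, edgeR adjusted p = 0.00197). POU5F1 was called lower at 72.2 and 40.9 CPM in DE(a)-DE(b) and 20.2 and 25.1 CPM in PPS-DE(b) (edgeR adjusted p = 0.0463). That value is uncertain, since POU5F1 is listed under 4 identifiers among which estimated counts can be split. Of the other 3, 1 was called lower at 255 and 203 CPM in DE(a)-DE(b) and 87.1 and 83.2 CPM in PPS-DE(b) (edgeR adjusted p = 3.73e-05), and another went the other way at 0.966 and 0 CPM and 35.1 and 42.3 CPM without passing the test (edgeR adjusted p = 0.0544). Of 14 neural and neuromesodermal genes tested, 5 were lower, SOX2, ZIC2, ZIC5, OTX2 and SIX3, and 1 higher (median -0.5). ZIC1, the member called higher, was at 0 and 0 CPM in DE(a)-DE(b) and 1.11 and 0.788 CPM in PPS-DE(b) (edgeR adjusted p = 0.00833). SOX1, a marker of neural plate, was at 0 CPM in all 4 libraries, and PAX6 did not exceed 0.41 CPM, below the level at which genes were tested. The pluripotency list gave 1 higher and 6 lower without PPS-DE(b) replicate 1, 2 higher and 9 lower without DE(a)-DE(b) replicate 1 and 0 higher and 11 lower without DE(a)-DE(b) replicate 2. The neural list gave 1 higher and 3 lower without PPS-DE(b) replicate 1 and 0 higher and 4 lower without DE(a)-DE(b) replicate 1 or 2. POU5F1 was not called without PPS-DE(b) replicate 1 or 2 or DE(a)-DE(b) replicate 1 (edgeR adjusted p from 0.13 to 0.286). LIN28B (edgeR adjusted p = 0.0673) was not called without DE(a)-DE(b) replicate 2. ZIC1 was not called without DE(a)-DE(b) replicate 1 or 2 (edgeR adjusted p from 0.0557 to 0.0721). OTX2 (edgeR adjusted p = 0.0911) was not called without PPS-DE(b) replicate 1. SIX3 was not called without any 1 of the 4 libraries (edgeR adjusted p from 0.0549 to 0.293). POU5F1 had a log2 fold change of -0.82 without DE(a)-DE(b) replicate 1.

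Genes of the nascent and presomitic mesoderm were higher. In the primitive streak list 8 of 15 tested genes were called higher and 1 lower (median 1.61), and in the presomitic and paraxial list 10 of 17 higher and 0 lower (median 3.09). MSGN1, a bHLH factor that drives presomitic differentiation, had no count in DE(a)-DE(b) and stood at 13.9 and 10.7 CPM in PPS-DE(b), at least 76.5-fold higher (edgeR adjusted p = 7.66e-09). MESP1, a bHLH factor of early cardiac and cranial mesoderm, was at 0.0492 and 0 CPM in DE(a)-DE(b) and 22.6 and 20.8 CPM in PPS-DE(b) (edgeR adjusted p = 1.04e-05). EVX1, a homeobox gene of the posterior streak, was at 0.394 and 0.116 CPM in DE(a)-DE(b) and 24.1 and 17.3 CPM in PPS-DE(b) (log2 fold change 6.3 ± 0.94, edgeR adjusted p = 6.37e-05). All 3 were at or under 0.394 CPM in both libraries of standard endoderm. APLNR, the G protein-coupled receptor of apelin and ELABELA on migrating mesendoderm, had 30.6 and 25.6 CPM in DE(a)-DE(b) and 1447 and 1102 CPM in PPS-DE(b) (log2 fold change 5.54 ± 0.45, edgeR adjusted p = 2.05e-08). TBXT (brachyury), the T-box factor of the streak and axial mesoderm, was at 22.2 and 23.8 CPM in DE(a)-DE(b) and 108 and 85.6 CPM in PPS-DE(b) (log2 fold change 2.11 ± 0.41, edgeR adjusted p = 9.11e-04). DLL3, a Delta family member of the somite clock, was at 4.66 and 7.79 CPM in DE(a)-DE(b) and 341 and 382 CPM in PPS-DE(b) (log2 fold change 5.9 ± 0.42, edgeR adjusted p = 4.68e-09). Its relative DLL1, an activating Notch ligand, was at 0.0628 and 1.22 CPM in DE(a)-DE(b) and 18.5 and 17 CPM in PPS-DE(b) (log2 fold change 4.92 ± 0.88, edgeR adjusted p = 4.06e-04). A second identifier of DLL1 did not exceed 0.282 CPM in these libraries. RSPO3, which raises WNT receptor levels at the cell surface, was at 0.197 and 0.523 CPM in DE(a)-DE(b) and 89.2 and 80.6 CPM in PPS-DE(b) (log2 fold change 7.94 ± 0.66, edgeR adjusted p = 4.19e-08). The forkhead factor FOXC1, needed with FOXC2 for somites, was at 9.66 and 8.9 CPM in DE(a)-DE(b) and 78.5 and 72.5 CPM in PPS-DE(b) (log2 fold change 3.07 ± 0.34, edgeR adjusted p = 1.61e-06). PAX3, a dermomyotome and neural crest factor, stood at 0.0492 and 0 CPM in DE(a)-DE(b) and 2.98 and 1.94 CPM in PPS-DE(b) (edgeR adjusted p = 2.39e-04). DLL1 had a log2 fold change of 8.37 without DE(a)-DE(b) replicate 2.

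**Figure D2:**
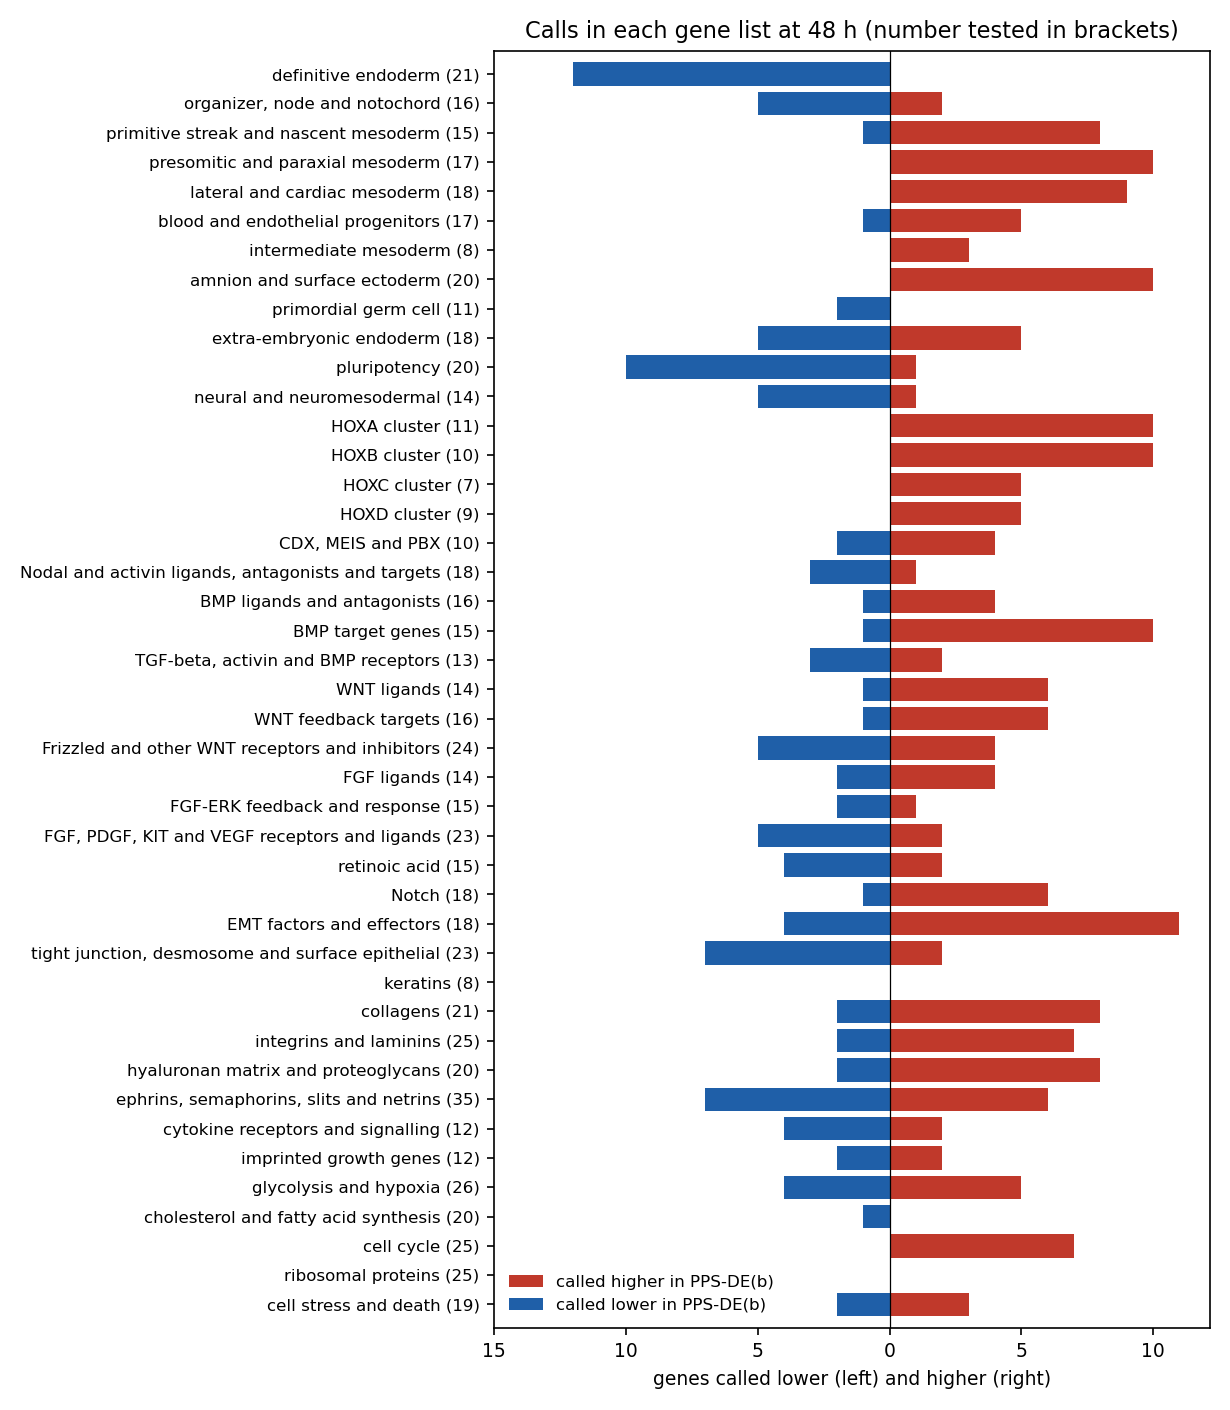
Number of genes called lower (blue, to the left) and higher (red, to the right) in PPS-DE(b) in each of the 43 gene lists, with the number tested in brackets after the name. The HOX, mesoderm, amnion and BMP target lists extend to the right, and the definitive endoderm and pluripotency lists to the left; keratins and ribosomal proteins have no call in either direction.

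Genes from the lists of other mesoderm derivatives and of the amnion were called higher too. Of 18 lateral and cardiac genes tested, 9 were called higher and 0 lower (median 2.39, or 2.32 with members at the floor of 3 counts set to their bound). HAND1, a bHLH factor of lateral plate and extra-embryonic mesoderm, was at 0 and 0.0583 CPM in DE(a)-DE(b) and 100 and 69.3 CPM in PPS-DE(b) (edgeR adjusted p = 1.02e-07). The cardiac myosin light chain MYL4 was at 0.84 and 0.523 CPM in DE(a)-DE(b) and 16.2 and 7.44 CPM in PPS-DE(b) (log2 fold change 4.14 ± 0.6, edgeR adjusted p = 4.94e-05). The LIM homeobox gene ISL1, of the second heart field and hindlimb field, was at 0.542 and 0.639 CPM in DE(a)-DE(b) and 8.24 and 5.69 CPM in PPS-DE(b) (log2 fold change 3.6 ± 0.75, edgeR adjusted p = 0.00154). In the blood and endothelial list 5 of 17 were higher and 1 lower (median 0.67). GATA2, a factor of blood progenitors and amnion, was at 0 and 0.349 CPM in DE(a)-DE(b) and 31.4 and 21.2 CPM in PPS-DE(b) (log2 fold change 7.34 ± 0.56, edgeR adjusted p = 1.73e-08). Its partner LMO2 was at 0.246 and 0.233 CPM in DE(a)-DE(b) and 7.18 and 4.98 CPM in PPS-DE(b) (log2 fold change 4.67 ± 0.84, edgeR adjusted p = 4.13e-04). KDR, the VEGF receptor of angioblasts, was at 107 and 106 CPM in DE(a)-DE(b) and 76.6 and 87.9 CPM in PPS-DE(b) (edgeR adjusted p = 0.67). TAL1 did not exceed 0.0606 CPM in any of the 4 libraries. The erythroid glycophorin GYPE had no count in DE(a)-DE(b) and 12.3 and 8.48 CPM in PPS-DE(b) (edgeR adjusted p = 2.68e-05), but it shares sequence with near-identical glycophorin copies, among which estimated counts can be split. GATA2 had a log2 fold change of 12.03 without DE(a)-DE(b) replicate 2.

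OSR1 and PAX2, transcription factors of the kidney-forming intermediate mesoderm, had no count in either DE(a)-DE(b) library. Of 8 genes tested in that list 3 were called higher, these among them, and 0 lower (median 2.06). OSR1 was at 10.8 and 7.09 CPM (edgeR adjusted p = 1.00e-05) and PAX2 at 1.6 and 1.21 CPM (edgeR adjusted p = 6.15e-04) in PPS-DE(b). Of 20 amnion and surface ectoderm genes tested, 10 were called higher and 0 lower (median 2.71, or 2.3 with bounds). MSX1, a homeobox factor that responds to BMP, was at 0.74 and 0.698 CPM in DE(a)-DE(b) and 76.7 and 69.3 CPM in PPS-DE(b) (log2 fold change 6.69 ± 0.53, edgeR adjusted p = 1.73e-08). GATA3 was at 1.68 and 1.86 CPM in DE(a)-DE(b) and 11.5 and 8.49 CPM in PPS-DE(b) (log2 fold change 2.54 ± 0.45, edgeR adjusted p = 3.33e-04). TFAP2A was low in every library, with 0 and 0.174 CPM in DE(a)-DE(b) and 3.77 and 4.19 CPM in PPS-DE(b) (edgeR adjusted p = 1.90e-05), and TFAP2C overlapped between the groups at 17.1 and 13 CPM in DE(a)-DE(b) and 13.2 and 16.1 CPM in PPS-DE(b) (edgeR adjusted p = 1). The genes called higher were CDX2, DLX5, GATA2, WNT6, MSX1, TFAP2A, MSX2, ISL1, GATA3 and TBX3, and all but TFAP2A stand in other lists as well, such as those of BMP targets and lateral mesoderm. Those not called were TFAP2B, TFAP2C, VTCN1, IGFBP3, GABRP, KRT7, KRT18, KRT8, TP63 and HEY1. Primordial germ cell genes gave 0 higher and 2 lower of 11 (KIT and PRDM1, median -0.81). NANOS3, an RNA-binding factor of germ cells, was at or under 0.121 CPM in each of the 4 libraries. PRDM1 (edgeR adjusted p = 0.0863) was not called without PPS-DE(b) replicate 1. TFAP2A had a log2 fold change of 9.3 without DE(a)-DE(b) replicate 2.

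In the extra-embryonic endoderm list 5 of 18 genes were higher and 5 lower (median 0.04). Those lower included HNF4A, FOXA2, APOA2 and AMN, and those higher were the basement membrane genes LAMB1, COL4A1, COL4A2 and SPARC together with PDGFRA, a growth factor receptor of mesoderm and of primitive endoderm. HNF4A, which acts in visceral endoderm, liver and gut, was at 39.4 and 33 CPM in DE(a)-DE(b) and 1.92 and 5.53 CPM in PPS-DE(b) (log2 fold change -3.25 ± 0.65, edgeR adjusted p = 0.00142). PDGFRA was at 28.7 and 24.4 CPM in DE(a)-DE(b) and 154 and 134 CPM in PPS-DE(b) (log2 fold change 2.48 ± 0.44, edgeR adjusted p = 3.38e-04). SPARC, a matrix protein made in quantity by parietal endoderm, was at 618 and 476 CPM in DE(a)-DE(b) and 1530.1 and 1451 CPM in PPS-DE(b) (log2 fold change 1.49 ± 0.21, edgeR adjusted p = 2.11e-05). SOX7, a marker of extra-embryonic endoderm and endothelium, did not exceed 0.669 CPM in any of the 4 libraries under either of its 2 identifiers. This list gave 4 higher and 1 lower without PPS-DE(b) replicate 1, 4 higher and 3 lower without PPS-DE(b) replicate 2, 3 higher and 4 lower without DE(a)-DE(b) replicate 1 and 5 higher and 3 lower without DE(a)-DE(b) replicate 2. APOA2 (edgeR adjusted p = 0.106) and FOXA2 (edgeR adjusted p = 0.0826) were not called without PPS-DE(b) replicate 1. AMN was not called without PPS-DE(b) replicate 1 or 2 or DE(a)-DE(b) replicate 2 (edgeR adjusted p from 0.189 to 0.411). COL4A1 was not called without PPS-DE(b) replicate 1 or 2 or DE(a)-DE(b) replicate 1 (edgeR adjusted p from 0.0951 to 0.243). COL4A2 (edgeR adjusted p = 0.073) was not called without DE(a)-DE(b) replicate 1. AMN had a log2 fold change of -1.79 without DE(a)-DE(b) replicate 2. COL4A1 had a log2 fold change of 0.49 without DE(a)-DE(b) replicate 1.

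HOX genes were near absent from standard endoderm and present in PPS-DE(b). In DE(a)-DE(b) no HOX gene of any cluster exceeded 0.443 CPM in a library. In PPS-DE(b) 10 of 11 HOXA genes tested, 10 of 10 HOXB, 5 of 7 HOXC and 5 of 9 HOXD were called higher and 0 lower. HOXA9 had 33.9 and 21.6 CPM (at least 172-fold higher than in DE(a)-DE(b), where both libraries had no count; edgeR adjusted p = 1.57e-05) and HOXA10 23.9 and 12.2 CPM (at least 112-fold; edgeR adjusted p = 4.75e-05). The most 5′ genes of this cluster, which mark the most posterior body, were present at low level, HOXA11 at 6.5 and 4.12 CPM and HOXA13 at 2.26 and 1.15 CPM. In the HOXB cluster, HOXB2 was at 54.5 and 46.3 CPM, HOXB3 at 81.3 and 72.2 CPM and HOXB4 at 15.1 and 12.4 CPM. HOXB5 was at 40.1 and 32.1 CPM, HOXB6 at 81.8 and 68.4 CPM and HOXB8 at 66 and 58.7 CPM. All of these but HOXB4 were over 20 CPM in both PPS-DE(b) libraries. The first and last members were low, with HOXB1 at 2.17 and 1.82 CPM and HOXB13 at 1.01 and 0.182 CPM. HOXC4 (8.77 and 8.02 CPM) and HOXC6 (12.5 and 9.59 CPM) led the HOXC cluster, and no HOXD gene exceeded 2 CPM. The medians of the 4 lists with members at the floor set to their bound were 5.04 (HOXA), 7.81 (HOXB), 4.49 (HOXC) and 2.34 (HOXD). HOXC genes gave 3 higher and 0 lower without PPS-DE(b) replicate 1 or DE(a)-DE(b) replicate 1 or 2. HOXD genes gave 3 higher and 0 lower without DE(a)-DE(b) replicate 2. HOXB13 was not called without PPS-DE(b) replicate 1 or DE(a)-DE(b) replicate 2 (edgeR adjusted p from 0.279 to 0.557). HOXC5 was not called without PPS-DE(b) replicate 1 or DE(a)-DE(b) replicate 1 or 2 (edgeR adjusted p from 0.0638 to 0.0999). HOXC9 was not called without any 1 of the 4 libraries (edgeR adjusted p from 0.104 to 0.191). HOXD3 was not called without DE(a)-DE(b) replicate 1 or 2 (edgeR adjusted p from 0.0562 to 0.0695). HOXD8 (edgeR adjusted p = 0.063) was not called without DE(a)-DE(b) replicate 2.

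**Figure D3:**
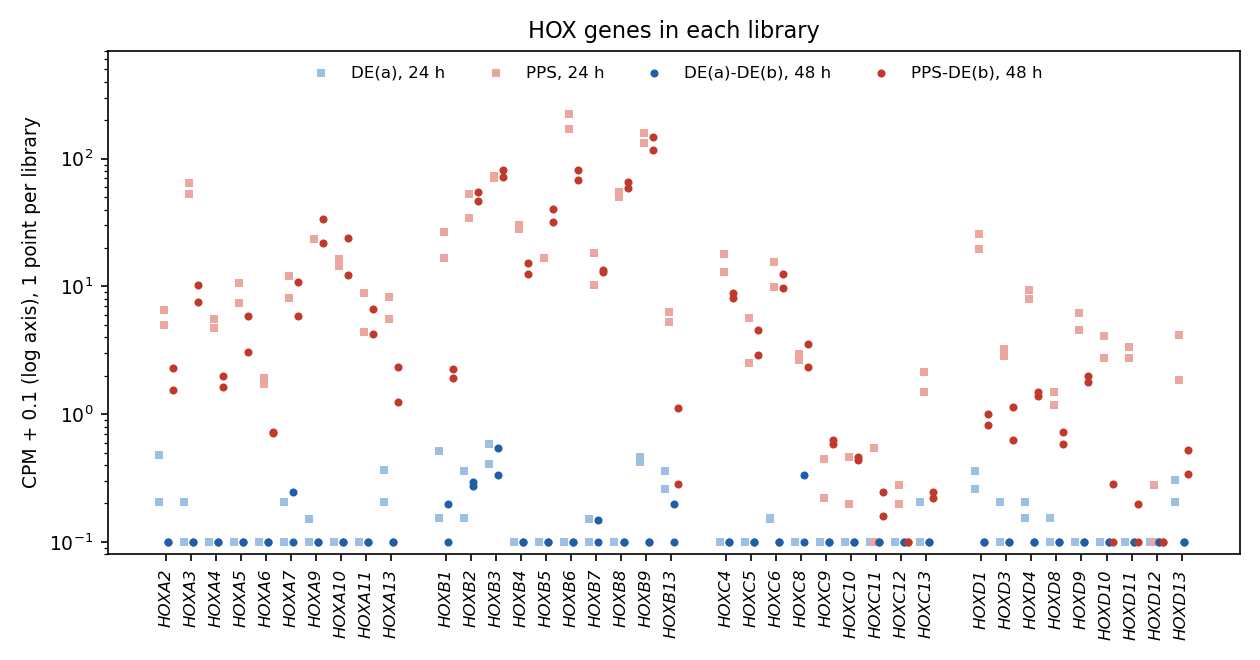
Level of HOX genes as CPM + 0.1 on a log axis, 1 point per library, at 24 h (squares) and at 48 h in DE(b) (circles), for cells that began as DE(a) (blue) or as PPS (red); 0.1 is the position of a gene with no count. Cells that began as PPS lie between 1 and 200 CPM for most HOXA and HOXB genes at both times, and the DE(a)-DE(b) libraries stay below 0.5 CPM.

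Most HOX genes were already present in PPS cells at 24 h. HOXB9 was at 159.8 and 133 CPM in PPS at 24 h and 149 and 117 CPM after DE(b), and HOXB8 at 54.6 and 50.3 CPM and 66 and 58.7 CPM. HOXB1, the most 3′ gene of its cluster, was at 26.5 and 16.7 CPM at 24 h against 2.17 and 1.82 CPM after DE(b), lower at 48 h in both libraries. HOXA9 was at 23.3 and 23.3 CPM and HOXA10 at 16.2 and 14.4 CPM at 24 h. These changes with time within the PPS series were not tested. Among the CDX factors, which bind and activate HOX clusters, CDX2 was at 362 and 410.5 CPM in PPS at 24 h and at 17.4 and 10 CPM in PPS-DE(b), with no count in DE(a)-DE(b) (at least 85.1-fold; edgeR adjusted p = 1.25e-06). CDX1 was at 0.148 and 0 CPM in DE(a)-DE(b) and 16 and 14.3 CPM in PPS-DE(b) (edgeR adjusted p = 3.62e-08), and CDX4 at 0.0985 and 0 CPM in DE(a)-DE(b) and 5.19 and 2.67 CPM in PPS-DE(b) (edgeR adjusted p = 8.16e-05). Of the HOX cofactors, MEIS2 was higher at 0.246 and 1.92 CPM in DE(a)-DE(b) and 24.5 and 21.1 CPM in PPS-DE(b) (log2 fold change 4.48 ± 0.71, edgeR adjusted p = 9.68e-05). MEIS3 was lower at 108 and 111 CPM in DE(a)-DE(b) and 43.3 and 36.9 CPM in PPS-DE(b) (log2 fold change -1.4 ± 0.31, edgeR adjusted p = 0.00243). Of the 10 genes tested in this list 4 were higher and 2 lower (median 0.9).

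Promoter sequences of 4 genes are shown because these genes were called and stand for the HOX, presomitic, lateral mesoderm and endoderm lists above. They were chosen after their values had been seen and run from 250 bases before to 50 bases after the start site in RefSeq (GRCh38.p14), 5′ to 3′ on the strand of the gene. Capitals mark every match to one of 5 short motifs on either strand: CTTTGAT for TCF/LEF factors, TTTATG for CDX, AATCCACA for FOXH1, TCACACCT for T-box factors and AGATAA for GATA factors.
HOXA9, chr7:27165488-27165787, minus strand: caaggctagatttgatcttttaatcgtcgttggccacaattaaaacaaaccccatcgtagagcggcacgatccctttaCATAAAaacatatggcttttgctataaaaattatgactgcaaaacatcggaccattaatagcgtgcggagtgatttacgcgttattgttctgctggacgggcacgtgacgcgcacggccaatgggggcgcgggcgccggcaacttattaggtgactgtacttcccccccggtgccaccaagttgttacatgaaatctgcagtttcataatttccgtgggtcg
MSGN1, chr2:17816210-17816509, plus strand: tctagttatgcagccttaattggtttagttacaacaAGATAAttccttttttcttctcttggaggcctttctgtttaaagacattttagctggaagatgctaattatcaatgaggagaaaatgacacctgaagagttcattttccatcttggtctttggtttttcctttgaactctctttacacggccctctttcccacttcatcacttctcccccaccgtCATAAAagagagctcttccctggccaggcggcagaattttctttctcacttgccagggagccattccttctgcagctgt
HAND1, chr5:154478178-154478477, minus strand: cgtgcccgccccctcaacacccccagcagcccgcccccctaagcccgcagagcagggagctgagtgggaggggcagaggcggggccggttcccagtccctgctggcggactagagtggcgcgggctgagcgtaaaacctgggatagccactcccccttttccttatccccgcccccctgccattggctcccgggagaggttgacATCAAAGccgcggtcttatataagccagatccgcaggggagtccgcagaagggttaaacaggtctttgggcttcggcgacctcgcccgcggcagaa
HNF4A, chr20:44355449-44355748, plus strand: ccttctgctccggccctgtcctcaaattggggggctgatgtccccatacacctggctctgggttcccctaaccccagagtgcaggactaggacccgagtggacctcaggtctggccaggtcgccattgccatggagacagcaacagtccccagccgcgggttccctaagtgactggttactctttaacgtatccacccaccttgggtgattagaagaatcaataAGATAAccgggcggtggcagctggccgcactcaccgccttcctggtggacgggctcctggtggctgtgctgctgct
The HOXA9 window holds 1 CDX match, that of MSGN1 1 CDX and 1 GATA match, that of HAND1 1 TCF/LEF match, and that of HNF4A, the gene that was lower in PPS-DE(b), 1 GATA match. Their G+C content was 48%, 42.3%, 66% and 60%. Such letters are common: of the 12272 tested genes with a RefSeq promoter, 5.66% held the CDX motif, 5.65% the GATA motif and 1.46% the TCF/LEF motif. Among promoters of genes called higher in PPS-DE(b) these shares were 6.31%, 6.31% and 1.02%, and among those called lower 4.30%, 5.03% and 1.74%. The FOXH1 motif stood in 0.448% of all promoters (0.683% of those higher, 0.274% of those lower) and the T-box motif in 0.758% (0.683% and 0.640%). A match is a description of the letters and not a binding site, and these shares were not tested.

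The ligand of the Nodal pathway did not separate the groups, and part of its feedback did. Nodal is a secreted ligand that signals through activin receptors and SMAD2/3, with LEFTY and CER1 as its induced antagonists. NODAL itself was at 229 and 182 CPM in DE(a)-DE(b) and 269.9 and 218 CPM in PPS-DE(b) (log2 fold change 0.29 ± 0.34, edgeR adjusted p = 0.627), and its co-receptor TDGF1 at 814 and 612 CPM in DE(a)-DE(b) and 411 and 502 CPM in PPS-DE(b) (edgeR adjusted p = 0.309). The NODAL values of the groups overlapped, and those of TDGF1 did not. LEFTY1 was lower, as given above, and so were the SMAD feedback genes SMAD7 and PMEPA1. SMAD7 was at 55.3 and 78.2 CPM in DE(a)-DE(b) and 30.5 and 29.1 CPM in PPS-DE(b) (log2 fold change -1.12 ± 0.2, edgeR adjusted p = 3.16e-04). PMEPA1 was at 131 and 143 CPM in DE(a)-DE(b) and 64.1 and 73.7 CPM in PPS-DE(b) (log2 fold change -0.95 ± 0.2, edgeR adjusted p = 0.00145). Of 18 genes tested in this list 1 was higher and 3 lower (median -0.36). GDF3 was at 13.2 and 12.2 CPM in DE(a)-DE(b) and 7.61 and 10.2 CPM in PPS-DE(b) (edgeR adjusted p = 0.586).

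**Figure D4:**
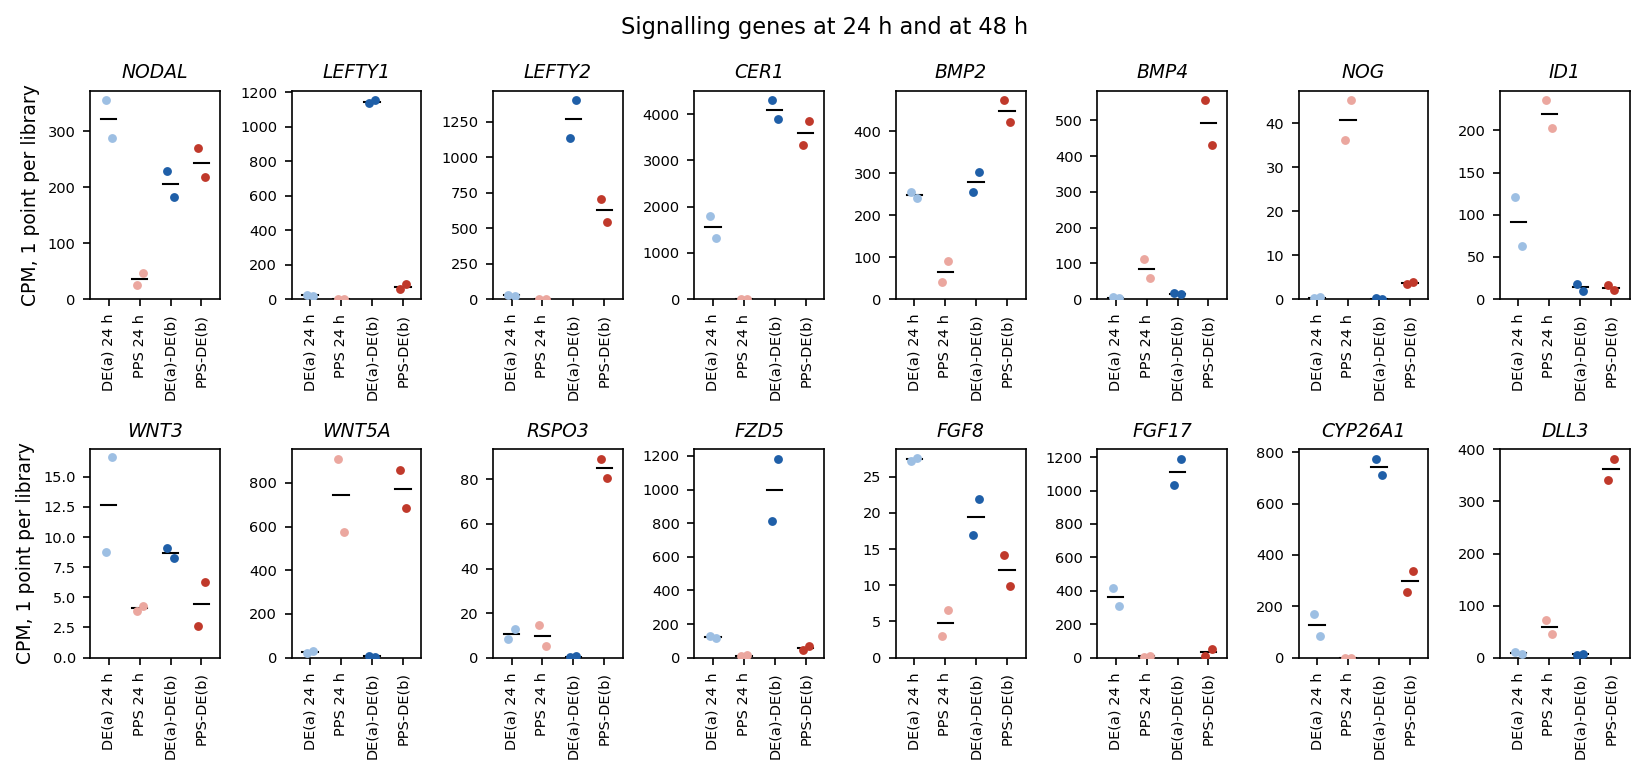
Level (CPM, linear axes from 0, 1 point per library, bar at the mean of 2) of 16 signalling genes in DE(a) and PPS cells at 24 h and after DE(b) at 48 h. NODAL, CER1 and CYP26A1 were low in PPS at 24 h and present in both conditions at 48 h, while LEFTY1, FZD5 and FGF17 were far lower and BMP4, WNT5A, RSPO3 and DLL3 far higher in PPS-DE(b) at 48 h.

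BMP4 and 10 of 15 BMP target genes were higher in PPS-DE(b), with both conditions in the BMP receptor inhibitor on day 2. BMP4 was at 16.9 and 13.3 CPM in DE(a)-DE(b) and 556 and 430.1 CPM in PPS-DE(b) (log2 fold change 5.07 ± 0.41, edgeR adjusted p = 2.05e-08). BMP2, at 255 and 304 CPM in DE(a)-DE(b) and 476 and 423 CPM in PPS-DE(b), was not called (log2 fold change 0.73 ± 0.27, edgeR adjusted p = 0.0713). BMPER, a secreted modulator of BMPs, was at 4.23 and 7.5 CPM in DE(a)-DE(b) and 66.8 and 51.3 CPM in PPS-DE(b) (log2 fold change 3.38 ± 0.54, edgeR adjusted p = 1.09e-04). In the list of BMP ligands and antagonists 4 of 16 were higher and 1 lower (median 0.53). Of 15 BMP target genes tested 10 were higher and 1, SMAD7, lower (median 2.05). MSX2 was at 1.28 and 1.92 CPM in DE(a)-DE(b) and 31.6 and 17.7 CPM in PPS-DE(b) (log2 fold change 4.0 ± 0.4, edgeR adjusted p = 3.95e-07). BAMBI, a decoy receptor induced by BMP, was at 23.9 and 21.6 CPM in DE(a)-DE(b) and 117 and 66.4 CPM in PPS-DE(b) (log2 fold change 2.05 ± 0.28, edgeR adjusted p = 2.00e-05). ID4 was at 1.77 and 2.79 CPM in DE(a)-DE(b) and 27.6 and 20.2 CPM in PPS-DE(b) (log2 fold change 3.44 ± 0.48, edgeR adjusted p = 2.45e-05). ID1, which is among the most direct targets of SMAD1/5, was at 17.7 and 10.1 CPM in DE(a)-DE(b) and 16.9 and 10.6 CPM in PPS-DE(b) and did not separate the groups (log2 fold change 0.02 ± 0.48, edgeR adjusted p = 0.994). SMAD6 was not called, and ID2 (log2 fold change 1.03 ± 0.27, edgeR adjusted p = 0.01) and ID3 (log2 fold change 1.38 ± 0.41, edgeR adjusted p = 0.0213) were called higher. ID2 and ID3 were not called without PPS-DE(b) replicate 1 or DE(a)-DE(b) replicate 2 (edgeR adjusted p from 0.132 to 0.281). ID2 had a log2 fold change of 0.66 without PPS-DE(b) replicate 1.

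Among 13 receptors of the TGF-beta family, 2 were higher and 3 lower (median 0.02). The list gave 2 higher and 0 lower without PPS-DE(b) replicate 1 and 1 higher and 2 lower without PPS-DE(b) replicate 2 or DE(a)-DE(b) replicate 2. The activin receptor ACVR1B was at 44.8 and 43.1 CPM in DE(a)-DE(b) and 40.9 and 48.3 CPM in PPS-DE(b) (edgeR adjusted p = 0.859). ACVR2A, which binds activin with it, was at 28 and 17.6 CPM in DE(a)-DE(b) and 30 and 30.1 CPM in PPS-DE(b) (edgeR adjusted p = 0.192). Neither was called. ACVR2B was lower at 191 and 192 CPM in DE(a)-DE(b) and 124 and 124 CPM in PPS-DE(b) (log2 fold change -0.58 ± 0.14, edgeR adjusted p = 0.00602). TGFBR2 was lower at 14.1 and 16.2 CPM in DE(a)-DE(b) and 4.69 and 7.15 CPM in PPS-DE(b) (log2 fold change -1.31 ± 0.29, edgeR adjusted p = 0.00272). ACVRL1 was higher at 0.739 and 0 CPM in DE(a)-DE(b) and 4.33 and 4.07 CPM in PPS-DE(b) (edgeR adjusted p = 4.71e-04). ACVR2B (edgeR adjusted p = 0.0558) and TGFBR2 (edgeR adjusted p = 0.0826) were not called without PPS-DE(b) replicate 1.

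WNT ligands of the posterior streak were higher, and some receptors lower. Of 14 WNT ligands tested 6 were higher and 1 lower (median 1.41). WNT5A, a ligand of non-canonical signalling that acts in axis elongation, was at 7.14 and 4.24 CPM in DE(a)-DE(b) and 860.1 and 687 CPM in PPS-DE(b) (log2 fold change 7.12 ± 0.35, edgeR adjusted p = 1.61e-11). WNT5B was at 1.68 and 1.92 CPM in DE(a)-DE(b) and 80.5 and 51.4 CPM in PPS-DE(b) (log2 fold change 5.24 ± 0.51, edgeR adjusted p = 2.67e-07). WNT8A, a canonical ligand of the streak, was at 0.739 and 0.233 CPM in DE(a)-DE(b) and 53.1 and 29.5 CPM in PPS-DE(b) (log2 fold change 6.39 ± 0.9, edgeR adjusted p = 3.20e-05). WNT3, the ligand that starts the streak in the mouse, was at 9.08 and 8.22 CPM in DE(a)-DE(b) and 2.66 and 6.3 CPM in PPS-DE(b) and was not called (edgeR adjusted p = 0.468). WNT3 is listed under 3 identifiers, and another was at 49.4 and 58.2 CPM in DE(a)-DE(b) and 51.9 and 47.7 CPM in PPS-DE(b) (edgeR adjusted p = 0.988). WNT5A, WNT5B and WNT8A were under 8 CPM in standard endoderm and over 29 CPM in every PPS-DE(b) library. Among WNT feedback targets 6 of 16 were higher and 1 lower (median 0.63). LEF1, a nuclear effector that is itself a target, was at 1.49 and 1.1 CPM in DE(a)-DE(b) and 41.8 and 31.1 CPM in PPS-DE(b) (log2 fold change 4.85 ± 0.39, edgeR adjusted p = 1.88e-08). TNFRSF19 was at 1.82 and 1.4 CPM in DE(a)-DE(b) and 57.6 and 48.6 CPM in PPS-DE(b) (log2 fold change 5.07 ± 0.54, edgeR adjusted p = 7.49e-07). LGR5, an R-spondin receptor, was at 43.8 and 69.8 CPM in DE(a)-DE(b) and 241 and 215 CPM in PPS-DE(b) (log2 fold change 2.04 ± 0.39, edgeR adjusted p = 6.84e-04). All 3 were higher in both PPS-DE(b) libraries. AXIN2, the feedback gene most used as a readout, went the other way in its values, 87 and 108 CPM in DE(a)-DE(b) and 52.6 and 57.3 CPM in PPS-DE(b), without passing the test (log2 fold change -0.79 ± 0.32, edgeR adjusted p = 0.0981).

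Frizzled receptors changed in both directions. FZD5 was at 813 and 1183 CPM in DE(a)-DE(b) and 42.7 and 69.6 CPM in PPS-DE(b) (log2 fold change -4.11 ± 0.28, edgeR adjusted p = 2.84e-09). FZD8, of the same subfamily, was at 226 and 331 CPM in DE(a)-DE(b) and 43.6 and 69.8 CPM in PPS-DE(b) (log2 fold change -2.26 ± 0.33, edgeR adjusted p = 4.75e-05). FZD10 was higher, at 0.0985 and 0.349 CPM in DE(a)-DE(b) and 19.8 and 10.7 CPM in PPS-DE(b) (log2 fold change 6.16 ± 0.79, edgeR adjusted p = 9.34e-06), and its groups did not overlap. FZD7 did overlap, at 388 and 509.7 CPM in DE(a)-DE(b) and 490.4 and 489 CPM in PPS-DE(b) (edgeR adjusted p = 0.712). The secreted WNT inhibitor SFRP1 was at 539 and 485 CPM in DE(a)-DE(b) and 71 and 69.3 CPM in PPS-DE(b) (log2 fold change -2.82 ± 0.21, edgeR adjusted p = 1.05e-08). A relative, FRZB, was at 16.1 and 15 CPM in DE(a)-DE(b) and 1.73 and 1.83 CPM in PPS-DE(b) (log2 fold change -3.08 ± 0.56, edgeR adjusted p = 4.80e-04). Both inhibitors were lower. In this list of 24 tested genes 4 were higher and 5 lower (median -0.2).

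FGF ligands changed in both directions. FGF17, of the FGF8 subfamily, was at 1034 and 1189.6 CPM in DE(a)-DE(b) and 10.6 and 52.3 CPM in PPS-DE(b) (log2 fold change -5.11 ± 0.73, edgeR adjusted p = 3.11e-05), with replicate 2 the higher of the PPS-DE(b) libraries. FGF4 was higher, at 6.37 and 4.62 CPM in DE(a)-DE(b) and 30.2 and 15.5 CPM in PPS-DE(b) (log2 fold change 2.1 ± 0.35, edgeR adjusted p = 1.63e-04). FGF8 was at 17 and 21.9 CPM in DE(a)-DE(b) and 14.2 and 9.93 CPM in PPS-DE(b) (edgeR adjusted p = 0.594). Of 14 FGF ligands tested 4 were higher and 2 lower (median 0.4, or 0.22 with bounds). FGF ligands gave 2 higher and 1 lower without PPS-DE(b) replicate 1, 4 higher and 1 lower without PPS-DE(b) replicate 2 or DE(a)-DE(b) replicate 2 and 3 higher and 1 lower without DE(a)-DE(b) replicate 1. In the FGF-ERK feedback list 1 of 15 was higher and 2 lower (median -0.07). SPRY1, an inhibitor of receptor tyrosine kinase signalling, was at 13.8 and 10.6 CPM in DE(a)-DE(b) and 74.7 and 69.9 CPM in PPS-DE(b) (log2 fold change 2.61 ± 0.51, edgeR adjusted p = 9.62e-04). The ERK phosphatase DUSP4 went the other way, at 338 and 380 CPM in DE(a)-DE(b) and 101 and 122 CPM in PPS-DE(b) (log2 fold change -1.65 ± 0.27, edgeR adjusted p = 1.45e-04). SPRY2 and SPRY4 were not called. In the list of growth factor and chemokine receptors and their ligands, 2 of 23 were higher and 5 lower (median 0.03). The angiogenic factor VEGFA was at 202 and 306 CPM in DE(a)-DE(b) and 32.1 and 46.2 CPM in PPS-DE(b) (log2 fold change -2.66 ± 0.33, edgeR adjusted p = 6.30e-06). ACKR3, a scavenging chemokine receptor, was at 99.9 and 103 CPM in DE(a)-DE(b) and 21.1 and 26.3 CPM in PPS-DE(b) (log2 fold change -2.06 ± 0.38, edgeR adjusted p = 5.98e-04).

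In the retinoic acid list 2 of 15 genes were higher and 4 lower (median -0.04). The receptor RARB, itself a target of retinoic acid, was at 10.8 and 8.3 CPM in DE(a)-DE(b) and 0.865 and 0.606 CPM in PPS-DE(b) (log2 fold change -3.64 ± 0.75, edgeR adjusted p = 0.00139). The synthesizing enzyme ALDH1A3 was at 31.7 and 39.6 CPM in DE(a)-DE(b) and 4.58 and 6.75 CPM in PPS-DE(b) (log2 fold change -2.62 ± 0.54, edgeR adjusted p = 0.00138). CRABP2, which carries retinoic acid to the nucleus, was higher at 68.7 and 40.4 CPM in DE(a)-DE(b) and 199 and 157 CPM in PPS-DE(b) (log2 fold change 1.75 ± 0.26, edgeR adjusted p = 5.37e-05). CRABP1 was lower, at 39.6 and 22.4 CPM in DE(a)-DE(b) and 5.04 and 6.43 CPM in PPS-DE(b) (log2 fold change -2.39 ± 0.39, edgeR adjusted p = 1.37e-04). STRA6, the cell surface receptor for retinol, was at 16.1 and 19.2 CPM in DE(a)-DE(b) and 62.6 and 59.8 CPM in PPS-DE(b) (log2 fold change 1.84 ± 0.34, edgeR adjusted p = 4.96e-04). CYP26A1, which degrades retinoic acid, was at 774 and 710.2 CPM in DE(a)-DE(b) and 256 and 338 CPM in PPS-DE(b) and was not called (log2 fold change -1.28 ± 0.51, edgeR adjusted p = 0.0933). Of 18 Notch genes tested 6 were higher and 1 lower (median 0.58). Beside DLL1 and DLL3, the ligand JAG1 was at 26.6 and 26 CPM in DE(a)-DE(b) and 142 and 133 CPM in PPS-DE(b) (log2 fold change 2.43 ± 0.17, edgeR adjusted p = 3.69e-09). HEY2, a Notch target, was at 6.32 and 4.02 CPM in DE(a)-DE(b) and 33.6 and 28 CPM in PPS-DE(b) (log2 fold change 2.62 ± 0.4, edgeR adjusted p = 6.75e-05). A second Jagged ligand, JAG2, was lower at 10.6 and 27.1 CPM in DE(a)-DE(b) and 3.58 and 5.63 CPM in PPS-DE(b) (edgeR adjusted p = 0.0082). The receptors NOTCH1 and NOTCH2 were not called. JAG2 was not called without PPS-DE(b) replicate 1 or DE(a)-DE(b) replicate 2 (edgeR adjusted p from 0.127 to 0.229). JAG2 had a log2 fold change of -1.16 without DE(a)-DE(b) replicate 2.

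Mesenchymal genes of the epithelial-mesenchymal transition (EMT) were higher in PPS-DE(b) and epithelial regulators lower. In this list 11 of 18 were higher and 4 lower (median 0.99). The counts were 7 higher and 1 lower without PPS-DE(b) replicate 1. SNAI2, a repressor of epithelial genes, was at 0.985 and 0.116 CPM in DE(a)-DE(b) and 28.8 and 22.7 CPM in PPS-DE(b) (log2 fold change 5.5 ± 0.64, edgeR adjusted p = 2.97e-06). The zinc finger repressor ZEB2 was at 1.23 and 1.4 CPM in DE(a)-DE(b) and 47.6 and 43.3 CPM in PPS-DE(b) (log2 fold change 5.15 ± 0.49, edgeR adjusted p = 2.19e-07). Its relative ZEB1 was at 3.86 and 3.78 CPM in DE(a)-DE(b) and 17.7 and 20.4 CPM in PPS-DE(b) (log2 fold change 2.36 ± 0.28, edgeR adjusted p = 3.77e-06). All 3 repressors were higher in both PPS-DE(b) libraries. SNAI1 was higher at 14.7 and 17.3 CPM in DE(a)-DE(b) and 49.9 and 44.8 CPM in PPS-DE(b) (log2 fold change 1.61 ± 0.24, edgeR adjusted p = 6.29e-05). TWIST1 was at 1.18 and 2.91 CPM in DE(a)-DE(b) and 2.94 and 4.32 CPM in PPS-DE(b) (edgeR adjusted p = 0.258). Fibronectin (FN1) was at 843 and 1067 CPM in DE(a)-DE(b) and 5382 and 4675 CPM in PPS-DE(b) (log2 fold change 2.44 ± 0.29, edgeR adjusted p = 4.15e-06). Its transcripts made up 0.538% and 0.467% of all counts in PPS-DE(b) against 0.0843% and 0.107% in DE(a)-DE(b). The 4 lower members were epithelial regulators. The splicing factor ESRP1 was at 169 and 147 CPM in DE(a)-DE(b) and 37.5 and 42.2 CPM in PPS-DE(b) (log2 fold change -1.95 ± 0.27, edgeR adjusted p = 1.87e-05). The others were its paralogue ESRP2 (log2 fold change -1.77 ± 0.4, edgeR adjusted p = 0.00304) and the transcription factors GRHL2 (log2 fold change -1.6 ± 0.42, edgeR adjusted p = 0.0094) and OVOL1 (log2 fold change -2.31 ± 0.68, edgeR adjusted p = 0.0208). VIM was not called without PPS-DE(b) replicate 1 or DE(a)-DE(b) replicate 2 (edgeR adjusted p from 0.0751 to 0.177). MMP2 (edgeR adjusted p = 0.0503) was not called without PPS-DE(b) replicate 1. MMP14 and TCF4 were not called without any 1 of the 4 libraries (edgeR adjusted p from 0.0519 to 0.111). ESRP2 (edgeR adjusted p = 0.081) and GRHL2 (edgeR adjusted p = 0.152) were not called without PPS-DE(b) replicate 1. OVOL1 was not called without PPS-DE(b) replicate 1 or DE(a)-DE(b) replicate 2 (edgeR adjusted p from 0.107 to 0.234). OVOL1 had a log2 fold change of -1.34 without PPS-DE(b) replicate 1. OVOL1 had a log2 fold change of -5.21 without PPS-DE(b) replicate 2.

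Epithelial junction genes were lower in part. Of 23 tight junction, desmosome and surface epithelial genes tested 7 were lower and 2 higher (median -0.36). CLDN6, a claudin of stem cells and early endoderm, was at 385 and 321 CPM in DE(a)-DE(b) and 137 and 140 CPM in PPS-DE(b) (log2 fold change -1.31 ± 0.2, edgeR adjusted p = 7.79e-05). CLDN7 was at 48.9 and 37.8 CPM in DE(a)-DE(b) and 9.42 and 11.8 CPM in PPS-DE(b) (log2 fold change -1.99 ± 0.29, edgeR adjusted p = 4.79e-05). The junctional adhesion molecule F11R was at 281 and 229.6 CPM in DE(a)-DE(b) and 145 and 139 CPM in PPS-DE(b) (log2 fold change -0.8 ± 0.15, edgeR adjusted p = 6.89e-04). All 3 fell below both libraries of standard endoderm. CLDN4 went the other way, at 2.52 and 2.05 CPM in DE(a)-DE(b) and 13.3 and 13.5 CPM in PPS-DE(b) (log2 fold change 2.59 ± 0.4, edgeR adjusted p = 7.84e-05). KRT8, a keratin of simple epithelia, was at 1296 and 1335 CPM in DE(a)-DE(b) and 1415 and 1223 CPM in PPS-DE(b) (log2 fold change 0.04 ± 0.3, edgeR adjusted p = 0.955). Its partner KRT18 was at 635 and 626 CPM in DE(a)-DE(b) and 819 and 658 CPM in PPS-DE(b) (log2 fold change 0.27 ± 0.32, edgeR adjusted p = 0.63). Neither was called. The 95% interval of KRT8 ran from -0.57 to 0.66 log2 units, and 0 of 8 keratins tested were called (median 1.25, or 0.95 with bounds). At an unadjusted p under 0.05, 3 of the 8 keratins were higher and 0 lower, and DESeq2 called 1 higher and 0 lower.

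In 3 lists of matrix genes more members were called higher than lower in PPS-DE(b). Of 21 collagens 8 were higher and 2 lower (median 0.56), of 25 integrins and laminins 7 higher and 2 lower (median -0.13), and of 20 hyaluronan and proteoglycan genes 8 higher and 2 lower (median 0.13). COL1A1, COL11A1 and COL27A1 were among the collagens not called. The collagen list gave 7 higher and 0 lower without PPS-DE(b) replicate 1 and 8 higher and 0 lower without PPS-DE(b) replicate 2 or DE(a)-DE(b) replicate 2. Hyaluronan and proteoglycan genes gave 5 higher and 1 lower without PPS-DE(b) replicate 1 or DE(a)-DE(b) replicate 2 and 6 higher and 1 lower without DE(a)-DE(b) replicate 1. COL5A2, of a collagen that nucleates fibrils, was at 530.1 and 600 CPM in DE(a)-DE(b) and 1622 and 1564 CPM in PPS-DE(b) (log2 fold change 1.54 ± 0.3, edgeR adjusted p = 8.39e-04). Its partner COL5A1 was at 171 and 255 CPM in DE(a)-DE(b) and 628 and 544 CPM in PPS-DE(b) (log2 fold change 1.5 ± 0.18, edgeR adjusted p = 4.97e-06). COL1A2 was at 289.9 and 176 CPM in DE(a)-DE(b) and 781 and 565 CPM in PPS-DE(b) (log2 fold change 1.57 ± 0.26, edgeR adjusted p = 1.58e-04). COL3A1 had no count in DE(a)-DE(b) and 18.6 and 7.8 CPM in PPS-DE(b) (at least 81.9-fold; edgeR adjusted p = 5.21e-05). HAPLN1, the link protein that fastens proteoglycans to hyaluronan, was at 2.29 and 0.988 CPM in DE(a)-DE(b) and 813 and 687 CPM in PPS-DE(b) (log2 fold change 8.86 ± 0.73, edgeR adjusted p = 2.49e-08). CD44, a hyaluronan receptor, was at 4.7 and 1.57 CPM in DE(a)-DE(b) and 23 and 22.9 CPM in PPS-DE(b) (log2 fold change 2.89 ± 0.44, edgeR adjusted p = 5.99e-05). The heparan sulfate proteoglycan GPC4 was lower at 767 and 778 CPM in DE(a)-DE(b) and 185 and 224 CPM in PPS-DE(b) (log2 fold change -1.88 ± 0.2, edgeR adjusted p = 9.89e-07). Among integrins and laminins, ITGA5, a fibronectin receptor subunit, was higher at 193 and 186 CPM in DE(a)-DE(b) and 432 and 365 CPM in PPS-DE(b) (log2 fold change 1.12 ± 0.25, edgeR adjusted p = 0.0026). ITGB8, a subunit that binds latent TGF-beta, was higher at 9.62 and 11.4 CPM in DE(a)-DE(b) and 56 and 59 CPM in PPS-DE(b) (log2 fold change 2.49 ± 0.25, edgeR adjusted p = 4.13e-07). The laminin chain LAMA2 was lower at 30.3 and 36.4 CPM in DE(a)-DE(b) and 3.85 and 3.4 CPM in PPS-DE(b) (log2 fold change -3.16 ± 0.51, edgeR adjusted p = 1.40e-04).

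Guidance molecules, which steer migrating cells and axons, changed in both directions. Of 35 tested 6 were higher and 7 lower (median 0.07). PLXNA4, a semaphorin co-receptor, was at 76.6 and 109 CPM in DE(a)-DE(b) and 1.15 and 1.88 CPM in PPS-DE(b) (log2 fold change -5.9 ± 0.56, edgeR adjusted p = 2.19e-07). SEMA3E was at 59.4 and 55.5 CPM in DE(a)-DE(b) and 4.9 and 8.43 CPM in PPS-DE(b) (log2 fold change -3.07 ± 0.31, edgeR adjusted p = 4.61e-07). UNC5C, a netrin receptor, was higher at 1.48 and 3.78 CPM in DE(a)-DE(b) and 109 and 84.4 CPM in PPS-DE(b) (log2 fold change 5.26 ± 0.58, edgeR adjusted p = 1.37e-06). The SLIT receptor ROBO2 was higher too, at 2.97 and 1.69 CPM in DE(a)-DE(b) and 23.3 and 18.5 CPM in PPS-DE(b) (log2 fold change 3.2 ± 0.34, edgeR adjusted p = 9.16e-07), and its ligand likewise. SLIT2 was at 27.4 and 23.6 CPM in DE(a)-DE(b) and 78.9 and 71.8 CPM in PPS-DE(b) (log2 fold change 1.6 ± 0.29, edgeR adjusted p = 4.86e-04). The neuropilin NRP2, which was among the genes with the largest gain in CPM, was at 242 and 259 CPM in DE(a)-DE(b) and 1083 and 993 CPM in PPS-DE(b) (log2 fold change 2.09 ± 0.36, edgeR adjusted p = 2.56e-04).

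LIFR and IL6ST, partners in 1 cytokine receptor, were higher and the chemokine CCL2 lower. In the cytokine list of 12 genes 2 were higher and 4 lower (median -0.69). It gave 2 higher and 1 lower without PPS-DE(b) replicate 1. LIFR, the receptor of leukaemia inhibitory factor, was at 161 and 179 CPM in DE(a)-DE(b) and 801 and 751 CPM in PPS-DE(b) (log2 fold change 2.23 ± 0.23, edgeR adjusted p = 4.42e-07). Its co-receptor IL6ST was at 64.4 and 70.8 CPM in DE(a)-DE(b) and 403 and 353 CPM in PPS-DE(b) (log2 fold change 2.53 ± 0.25, edgeR adjusted p = 3.41e-07). The chemokine CCL2 was lower, at 62.9 and 42.6 CPM in DE(a)-DE(b) and 4.17 and 6.44 CPM in PPS-DE(b) (log2 fold change -3.27 ± 0.46, edgeR adjusted p = 2.75e-05). Of 12 imprinted growth genes tested 2 were higher and 2 lower (median 0.16). PLAGL1, a zinc finger factor, was at 1.23 and 2.39 CPM in DE(a)-DE(b) and 49.2 and 56.1 CPM in PPS-DE(b) (log2 fold change 4.92 ± 0.7, edgeR adjusted p = 3.23e-05). MEST was at 131 and 78.4 CPM in DE(a)-DE(b) and 518 and 437 CPM in PPS-DE(b) (log2 fold change 2.23 ± 0.27, edgeR adjusted p = 3.50e-06). GRB10, an adaptor that restrains growth factor signalling, was lower at 287 and 359.7 CPM in DE(a)-DE(b) and 98.6 and 119 CPM in PPS-DE(b) (log2 fold change -1.53 ± 0.24, edgeR adjusted p = 7.80e-05).

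Metabolic and cell cycle genes differed in part. Of 26 glycolysis and hypoxia genes 5 were higher and 4 lower (median 0.16). That list gave 3 higher and 1 lower without PPS-DE(b) replicate 1 and 3 higher and 2 lower without PPS-DE(b) replicate 2 or DE(a)-DE(b) replicate 2. Hexokinase HK1, which opens glycolysis, was at 149.8 and 134 CPM in DE(a)-DE(b) and 284 and 306 CPM in PPS-DE(b) (log2 fold change 1.1 ± 0.14, edgeR adjusted p = 1.23e-05). The phosphofructokinase PFKP was at 69.9 and 73.4 CPM in DE(a)-DE(b) and 258 and 230.5 CPM in PPS-DE(b) (log2 fold change 1.81 ± 0.23, edgeR adjusted p = 7.38e-06). The glucose transporter SLC2A3 was lower, at 2155 and 2087 CPM in DE(a)-DE(b) and 1081 and 1245 CPM in PPS-DE(b) (log2 fold change -0.83 ± 0.27, edgeR adjusted p = 0.0391). Of 20 cholesterol and fatty acid genes 1 was lower and 0 were higher (median 0.09). In the cell cycle list 7 of 25 were higher and 0 lower (median 0.39). Its counts were 2 higher and 0 lower without PPS-DE(b) replicate 1 or DE(a)-DE(b) replicate 2 and 3 higher and 0 lower without PPS-DE(b) replicate 2. The members called higher were CDKN2A, CDKN2B, CCND1, CDKN1A, MCM2, MCM4 and MCM7. Of these, CDKN2A, CDKN2B and CDKN1A encode inhibitors of cyclin-dependent kinases. Cyclin D1 (CCND1), which drives entry into the cycle, was at 81.6 and 71.3 CPM in DE(a)-DE(b) and 237 and 239 CPM in PPS-DE(b) (log2 fold change 1.68 ± 0.17, edgeR adjusted p = 4.53e-07). The proliferation markers MKI67 (log2 fold change -0.07 ± 0.21, edgeR adjusted p = 0.866) and TOP2A (log2 fold change 0.13 ± 0.16, edgeR adjusted p = 0.634) were not called. Of 25 ribosomal protein genes 0 were called in edgeR (median 0.23), with 0 higher and 0 lower at an unadjusted p under 0.05 and 0 and 0 called by DESeq2. Their summed level was 12957 CPM in DE(a)-DE(b) replicate 2 and 17665 to 19594 CPM in the other 3 libraries, so that DE(a)-DE(b) replicate 2 stood apart, and without it 1639 genes were called in all. Of 19 stress and cell death genes 3 were higher and 2 lower (median -0.09). The stress list gave 0 higher and 2 lower without PPS-DE(b) replicate 1 or DE(a)-DE(b) replicate 2, 2 higher and 1 lower without PPS-DE(b) replicate 2 and 1 higher and 1 lower without DE(a)-DE(b) replicate 1. BBC3, a target of p53, was at 20 and 23.1 CPM in DE(a)-DE(b) and 7.5 and 6.45 CPM in PPS-DE(b) (log2 fold change -1.59 ± 0.31, edgeR adjusted p = 9.82e-04). SLC2A3 was not called without any 1 of the 4 libraries (edgeR adjusted p from 0.105 to 0.252).

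Other genes with large differences had varied roles. PRTG (protogenin), an immunoglobulin-family receptor of the early embryo, was at 16.7 and 21.6 CPM in DE(a)-DE(b) and 1293 and 1104 CPM in PPS-DE(b) (log2 fold change 6.01 ± 0.38, edgeR adjusted p = 1.15e-09). NTS, the neurotensin peptide, was at 207 and 141 CPM in DE(a)-DE(b) and 1458 and 1089.9 CPM in PPS-DE(b) (log2 fold change 2.91 ± 0.53, edgeR adjusted p = 4.57e-04). ARSF, a sulfatase gene, had no count in DE(a)-DE(b) and 14.6 and 13.1 CPM in PPS-DE(b) (at least 85.8-fold; edgeR adjusted p = 2.45e-05). In the other direction, VWF, the von Willebrand factor of endothelium, was at 101 and 161 CPM in DE(a)-DE(b) and 1.3 and 3.77 CPM in PPS-DE(b) (log2 fold change -5.68 ± 0.71, edgeR adjusted p = 6.33e-06). SLC5A9, a sugar transporter, was at 135 and 264 CPM in DE(a)-DE(b) and 4.81 and 11.9 CPM in PPS-DE(b) (log2 fold change -4.55 ± 0.43, edgeR adjusted p = 1.99e-07). The organic cation transporter SLC22A3 was at 18.8 and 20.8 CPM in DE(a)-DE(b) and 0.443 and 0.912 CPM in PPS-DE(b) (log2 fold change -4.86 ± 0.46, edgeR adjusted p = 2.01e-07). ADAMTS18, a secreted protease, was at 11.7 and 35.5 CPM in DE(a)-DE(b) and 0.24 and 0.424 CPM in PPS-DE(b) (log2 fold change -6.11 ± 0.82, edgeR adjusted p = 1.88e-05). ACSM4, an acyl-CoA synthetase gene, was at 28.4 and 27.2 CPM in DE(a)-DE(b) and 0.0961 and 0.667 CPM in PPS-DE(b) (log2 fold change -6.18 ± 0.87, edgeR adjusted p = 6.45e-04). MOBP (log2 fold change -5.23 ± 1.13, edgeR adjusted p = 0.0032), FAM135B (log2 fold change -4.88 ± 0.75, edgeR adjusted p = 8.60e-05) and PAQR5 (log2 fold change -4.4 ± 0.97, edgeR adjusted p = 0.0026) completed the 10 largest falls, each under 31 CPM in DE(a)-DE(b). MOBP (edgeR adjusted p = 0.0665) and PAQR5 (edgeR adjusted p = 0.0601) were not called without PPS-DE(b) replicate 1.

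By difference in CPM, the 10 largest falls included PODXL, FGF17, LEFTY1, SLC2A3, FZD5, SERPINB9, APLP2, GJA1 and GTF2IP4. PODXL, a sialomucin of pluripotent cells and of apical membranes, was at 1977 and 2379 CPM in DE(a)-DE(b) and 430.4 and 511 CPM in PPS-DE(b) (log2 fold change -2.17 ± 0.6, edgeR adjusted p = 0.0145). The amyloid precursor-like gene APLP2 was at 1325 and 1340.2 CPM in DE(a)-DE(b) and 661 and 696 CPM in PPS-DE(b) (log2 fold change -0.93 ± 0.1, edgeR adjusted p = 4.95e-07). The gap junction gene GJA1 was at 1926 and 1494 CPM in DE(a)-DE(b) and 962 and 1169.5 CPM in PPS-DE(b) (log2 fold change -0.64 ± 0.19, edgeR adjusted p = 0.0197). The protease inhibitor SERPINB9 was at 1331 and 1651 CPM in DE(a)-DE(b) and 479 and 900.4 CPM in PPS-DE(b) (log2 fold change -1.07 ± 0.34, edgeR adjusted p = 0.0343). GTF2IP4, a pseudogene of GTF2I, was at 849 and 807 CPM in DE(a)-DE(b) and 179 and 227 CPM in PPS-DE(b) (log2 fold change -1.98 ± 0.17, edgeR adjusted p = 3.94e-08). This value is uncertain, since the gene shares sequence with its parent. The 10 largest gains in CPM were FN1, ACTB, APLNR, PRTG, NTS, COL5A2, SPARC, HSPA8, NRP2 and WNT5A. ACTB, a cytoskeletal actin, was at 4176 and 3295 CPM in DE(a)-DE(b) and 5946 and 5452 CPM in PPS-DE(b) (log2 fold change 0.65 ± 0.21, edgeR adjusted p = 0.0391). The chaperone HSPA8 was at 1579 and 989 CPM in DE(a)-DE(b) and 2070.5 and 2230.2 CPM in PPS-DE(b) (log2 fold change 0.79 ± 0.25, edgeR adjusted p = 0.0306). In ACTB and HSPA8 DE(a)-DE(b) replicate 2 was the lowest of the 4 libraries. PODXL, ACTB and HSPA8 were not called without PPS-DE(b) replicate 1 or 2 or DE(a)-DE(b) replicate 2 (edgeR adjusted p from 0.0804 to 0.374). GJA1 was not called without PPS-DE(b) replicate 1 or DE(a)-DE(b) replicate 1 (edgeR adjusted p from 0.171 to 0.226). SERPINB9 was not called without PPS-DE(b) replicate 1 or DE(a)-DE(b) replicate 2 (edgeR adjusted p from 0.212 to 0.37). SERPINB9 had a log2 fold change of -0.68 without PPS-DE(b) replicate 1. HSPA8 had a log2 fold change of 0.5 without DE(a)-DE(b) replicate 2.

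The contrast at 24 h, before endoderm medium, differed from that at 48 h for many genes. PPS against DE(a) at 24 h gave 3749 calls of 17895 (20.9%), 1917 (10.7%) higher and 1832 (10.2%) lower. The 2 contrasts use different libraries. Of genes called higher at 48 h, 29.8% were also called higher at 24 h (460 genes), which is 24.0% of those called higher at 24 h, and of genes called lower at 48 h, 22.0% had been lower at 24 h (344 genes, 18.8% of those lower at 24 h). A further 240 genes were lower at 24 h and higher at 48 h, and 190 the reverse. Across all 17895 genes tested, the fold changes at the 2 times had a Pearson correlation of 0.194 and a Spearman correlation of 0.007. Across the 11258 genes over 10 CPM in any of the 4 conditions, the Pearson correlation was 0.379. These values are given as a description across genes. The difference between the 2 contrasts, tested in edgeR as a difference of differences, was called for 3567 genes (19.9%), 1766 (9.87%) with a higher and 1801 (10.1%) with a lower relative level of the PPS-derived cells at 48 h than at 24 h.

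**Figure D5:**
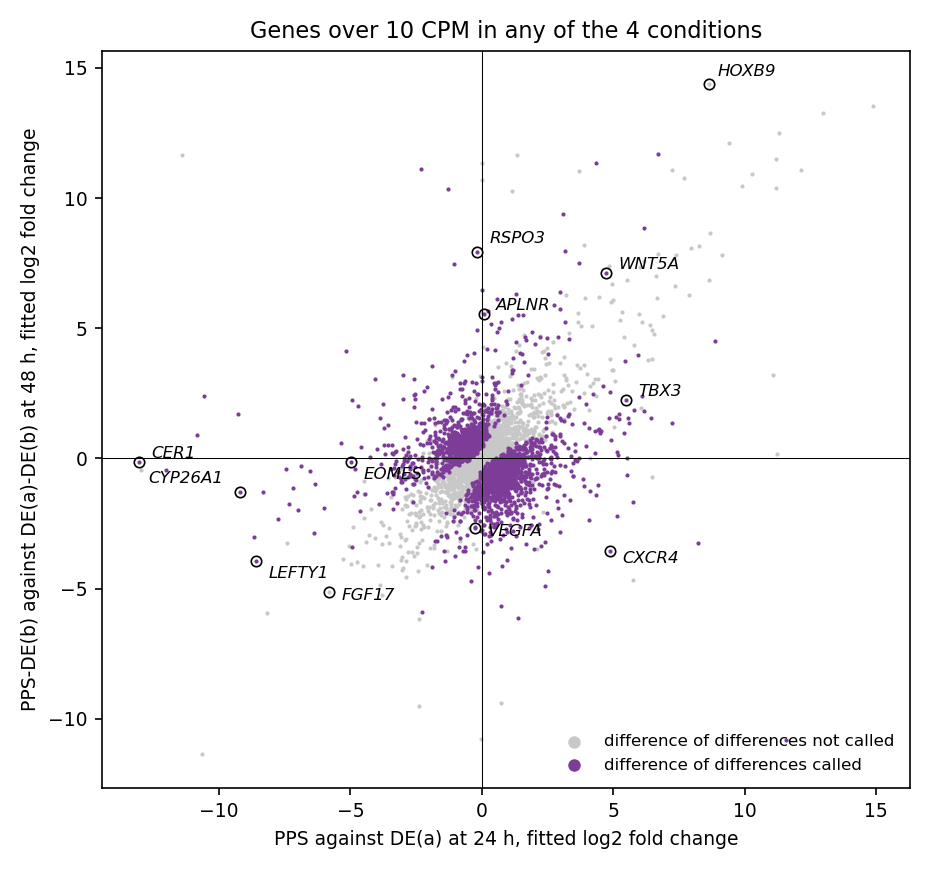
Fitted log2 fold change of PPS against DE(a) at 24 h (x axis) and of PPS-DE(b) over DE(a)-DE(b) at 48 h (y axis) for genes over 10 CPM in any of the 4 conditions, in purple where the difference of differences was called. CER1 and EOMES lie far to the left and near 0 on the y axis, and CYP26A1 lies far to the left and below 0. RSPO3 and APLNR lie near 0 at 24 h and high at 48 h, and CXCR4 changes sign. Fitted values of genes near 0 counts on 1 side depend on the prior count.

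Several endoderm and organizer genes differed less between the conditions at 48 h than at 24 h, and some were no longer called. CER1 was at 1795 and 1319.8 CPM in DE(a) and 0.346 and 0 CPM in PPS at 24 h, and it was not called at 48 h (difference of differences 12.89 ± 1.13, edgeR adjusted p = 9.89e-07). That fitted value rests on few counts in PPS at 24 h. EOMES, the T-box factor upstream of endoderm, was at 666 and 631 CPM in DE(a) and 12.2 and 31 CPM in PPS at 24 h and at 439.8 and 443 CPM in DE(a)-DE(b) and 368 and 412 CPM in PPS-DE(b) at 48 h (4.85 ± 0.83, edgeR adjusted p = 3.58e-04). NODAL went from 356 and 288 CPM in DE(a) and 24.7 and 45.9 CPM in PPS to overlapping values (3.55 ± 0.5, edgeR adjusted p = 4.66e-05). CYP26A1 was at 168 and 82.4 CPM in DE(a) and 0.198 and 0.241 CPM in PPS at 24 h (7.92 ± 1.04, edgeR adjusted p = 2.28e-05). Of the genes lower in PPS at 24 h, 736 were no longer called at 48 h with a called rise in the difference of differences, and 705 were higher at 24 h and no longer called with a called fall. LEFTY2 (5.36 ± 0.7, edgeR adjusted p = 3.30e-05), OTX2 (5.03 ± 0.81, edgeR adjusted p = 2.02e-04) and GSC (5.59 ± 0.52, edgeR adjusted p = 6.56e-07) narrowed their distance as well. So did the endoderm factor SOX17 (6.04 ± 1.64, edgeR adjusted p = 0.0139). GSC, OTX2 and HHEX were still called lower at 48 h, and SOX17 was not called (log2 fold change -1.15 ± 0.87, edgeR adjusted p = 0.41). With an SE of that size the 2 conditions are not shown to be close in SOX17. SOX17 was called lower with no filter on low counts (edgeR adjusted p = 5.16e-08) and in the fit of the 8 DE(b) libraries (edgeR adjusted p = 0.0457). HHEX had 2.9 and 2.05 CPM in DE(a) and no count in PPS at 24 h. OTX2 (edgeR adjusted p = 0.0911) was not called without PPS-DE(b) replicate 1. SOX17 was not called in the difference of differences without PPS-24h replicate 1 or 2 or DE(a)-24h replicate 1 (edgeR adjusted p from 0.0557 to 0.0723).

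Other genes separated, or changed their order, during the second day. APLNR was at 141 and 93.9 CPM in DE(a) and 175 and 86.3 CPM in PPS at 24 h (log2 fold change 0.08 ± 0.37, edgeR adjusted p = 0.91), and the difference of differences was 5.46 ± 0.56, edgeR adjusted p = 1.64e-06. RSPO3 was at 8.51 and 12.7 CPM in DE(a) and 14.6 and 5.0 CPM in PPS at 24 h (8.12 ± 0.8, edgeR adjusted p = 1.64e-06). ZEB2 (4.79 ± 0.63, edgeR adjusted p = 2.28e-05), SPRY1 (4.82 ± 0.74, edgeR adjusted p = 1.32e-04) and COL5A2 (3.33 ± 0.43, edgeR adjusted p = 1.92e-05) gained as well, SPRY1 and COL5A2 from a called deficit of PPS at 24 h. FOXC1 turned from 11 and 7.31 CPM in DE(a) and 1.98 and 1.2 CPM in PPS to a called excess in PPS-DE(b) (5.64 ± 0.52, edgeR adjusted p = 5.76e-07). VEGFA moved the other way, with 73.3 and 50.2 CPM in DE(a) and 58.2 and 50.1 CPM in PPS at 24 h and a called deficit at 48 h (-2.4 ± 0.45, edgeR adjusted p = 7.53e-04). In numbers, 449 genes called higher and 578 called lower at 48 h were not called at 24 h and had a called difference of differences in that direction.

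CXCR4 reversed. At 24 h it was at 1.76 and 0.805 CPM in DE(a) and 59.8 and 19.5 CPM in PPS (log2 fold change 4.87 ± 0.68, edgeR adjusted p = 1.92e-05), and at 48 h it was lower in PPS-DE(b) (difference of differences -8.42 ± 0.89, edgeR adjusted p = 2.17e-06). PODXL reversed as well, from 121 and 111 CPM in DE(a) and 870 and 1146 CPM in PPS at 24 h (log2 fold change 3.05 ± 0.62, edgeR adjusted p = 0.00119) to the deficit given above. TBX3, a T-box factor responsive to BMP, stayed higher with a smaller distance, from 11.3 and 9.93 CPM in DE(a) and 514 and 494 CPM in PPS at 24 h to 9.81 and 14.5 CPM in DE(a)-DE(b) and 65.6 and 45.5 CPM in PPS-DE(b) (-3.25 ± 0.36, edgeR adjusted p = 3.51e-06). GADD45G, a growth arrest gene, was at 1.66 and 1.94 CPM in DE(a) and 65.6 and 70.4 CPM in PPS at 24 h and lower at 48 h, at 10 and 13 CPM in DE(a)-DE(b) and 2.36 and 2.43 CPM in PPS-DE(b) (-7.39 ± 0.45, edgeR adjusted p = 1.36e-09). RNASE1, a secreted ribonuclease, likewise went from 0 and 0.107 CPM in DE(a) and 3.65 and 3.04 CPM in PPS to 14.8 and 6.98 CPM in DE(a)-DE(b) and 2.37 and 4.31 CPM in PPS-DE(b). LRRTM1 went the other way, from 5.19 and 6.39 CPM in DE(a) and 0.0991 and 0.241 CPM in PPS to 2.72 and 1.64 CPM in DE(a)-DE(b) and 41 and 32.9 CPM in PPS-DE(b) (9.28 ± 1.35, edgeR adjusted p = 6.81e-05). In ARSF, AL139300.1, RFPL2, GABRA4 and RNASE1 a condition had 3 counts or fewer in both libraries, so that their fitted difference of differences depends on the prior count. PODXL was not called without PPS-DE(b) replicate 1 or 2 or DE(a)-DE(b) replicate 2 (edgeR adjusted p from 0.0804 to 0.136). RNASE1 was not called without PPS-DE(b) replicate 1 or 2 or DE(a)-DE(b) replicate 1 (edgeR adjusted p from 0.0624 to 0.302). RNASE1 had a log2 fold change of -1.03 without DE(a)-DE(b) replicate 1. GABRA4 (edgeR adjusted p = 1) was not called in the difference of differences without DE(a)-DE(b) replicate 2.

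The DE(b) libraries that began as APS or MPS share their standard endoderm control with this comparison, so their levels are given side by side without a test. CXCR4 was at 105 and 125 CPM in APS-DE(b) and 18.6 and 29.7 CPM in MPS-DE(b). LEFTY1 was at 812 and 952 CPM in APS-DE(b) and 226 and 314 CPM in MPS-DE(b), and FZD5 at 692 and 812 CPM in APS-DE(b) and 201 and 252 CPM in MPS-DE(b). In each of these genes the APS-DE(b) libraries were nearest to standard endoderm and the MPS-DE(b) libraries lay between them and PPS-DE(b). WNT5A was at 14 and 14.9 CPM in APS-DE(b) and 99.6 and 99.2 CPM in MPS-DE(b), and the MPS-DE(b) libraries again lay between. BMP4 was at 45 and 37.1 CPM in APS-DE(b) and 228 and 173 CPM in MPS-DE(b), and HOXB9 at 0 and 0.0493 CPM in APS-DE(b) and 16.2 and 17.6 CPM in MPS-DE(b). TBXT was at 16.6 and 21.3 CPM in APS-DE(b) and 11.1 and 13.7 CPM in MPS-DE(b), both under the lower of the PPS-DE(b) libraries and under the DE(a)-DE(b) libraries. COL5A2 was highest in MPS-DE(b), at 2209.8 and 2229.6 CPM, above the PPS-DE(b) libraries.

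The 2 PPS-DE(b) libraries were close, with a Pearson correlation of log2(CPM + 1) over tested genes of 0.991, against 0.980 between the DE(a)-DE(b) libraries and 0.938 to 0.957 between conditions. The genes over 10 CPM that differed most between the PPS-DE(b) libraries were SULT1A3 at 2.9 and 21.6 CPM, FGF17 at 10.6 and 52.3 CPM, SULT1A4 at 21 and 4.6 CPM, TVP23C-CDRT4 at 5.41 and 23.5 CPM and MAGED4 at 58 and 14.6 CPM. SULT1A3 and SULT1A4 are near-identical copies whose reads can be divided differently in each library, and their values moved in opposite directions. FGF17 is the 1 gene of these 5 that was called between the conditions.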

How the data were processed

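RNA sequencing (poly(A) selection, stranded libraries) of 17 conditions of ESI017 cells in 2 replicates each was deposited by the authors as 2 tables of estimated counts per gene, 1 table for each replicate. The authors made these estimated counts with Salmon (version 1.10.2) against a GRCh38 transcriptome, and the submitters' processing notes also name R 4.4.2. No scaling for depth or gene length had been applied. Here they were rounded to whole numbers for the quasi-likelihood test of edgeR (version 4.0.16, limma 3.58.1, R 4.3.3) with TMM factors and filterByExpr, which kept 17895 of 37951 identifiers. All 34 libraries entered the fit, with 1 mean per condition and 17 residual degrees of freedom, and p-values were adjusted by Benjamini-Hochberg over all genes tested. CPM values used unrounded counts over the library total. Python 3.11.15 with pandas 2.3.3, numpy 2.4.6 and scipy 1.17.1 made the tables, and matplotlib 3.10.9 the figures. The fit was tested on simulated data first.

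The comparison, the gene lists (763 entries, of which 761 were matched to 1 identifier, the one placed on a chromosome where several shared a symbol) and the named genes were chosen with earlier results of these data known. Genes named are the 10 largest rises and 10 largest falls among called genes over 10 CPM, by fold and by difference in CPM, the 5 largest differences of differences in each direction, members of each list (the first 3 and those called) and the 5 genes furthest apart between the PPS-DE(b) replicates. Other genes singled out, such as MEIS3, MKI67, TOP2A and KRT18, belong to a list and were chosen after their values were seen. A few genes that these rules name are not reported here. Where both libraries of a group had no count, a fold is given as a lower bound against 3 counts per library, and floors and bounds cover counting error only. Estimated counts divide reads among near-identical genes, so pseudogenes and paralogs are uncertain. Replicate numbers were checked for pairing by the correlation of the difference between replicates over 136 pairs of conditions. It ran from -0.172 to 0.531 (median 0.142), with 88 over 0.1 and 13 under 0, and was 0.190 for PPS-DE(b) and DE(a)-DE(b). Most pairs were thus positive, and these values do not exclude a shared replicate effect. The main fit did not model pairing, and a fit with a replicate block is given as an alternative. Alternatives were RLE size factors, no filter on low counts, fewer libraries in the fit, a replicate block, DESeq2 1.42.0, a fold change tested against at least 2 and leaving out each library.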

Additional observations from a re-analysis of the deposited data

Results flagged for a closer look

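The results below were singled out because the difference between cells that began as PPS and as DE(a) was itself different at 48 h in DE(b) from that at 24 h, tested in edgeR as a difference of differences on the log2 scale with Benjamini-Hochberg adjustment. It was called for 3567 genes. Calls went both ways in the endoderm and organizer lists. Of 21 definitive endoderm genes tested, 8 had a called rise and 4 a called fall in the relative level of the PPS-derived cells, CXCR4 (-8.42) among the falls. Of 16 organizer genes 7 rose and 4 fell. Among the endoderm and organizer genes picked out here that level rose by 12.89 for CER1, 4.85 for EOMES, 5.59 for GSC, 3.55 for NODAL, 4.64 for LEFTY1, 5.36 for LEFTY2, 5.03 for OTX2, 5.64 for HHEX, 6.04 for SOX17 and 1.91 for GATA6. LEFTY1 rose in this way and was still lower in PPS-DE(b), and without PPS-24h replicate 2 its value was 7.87. The call of SOX17 was lost without PPS-24h replicate 1 or 2 or DE(a)-24h replicate 1. Against a fold of at least 2, SOX17, HHEX and GATA6 were not called. Without PPS-24h replicate 1 or 2, HHEX (edgeR adjusted p from 0.055 to 0.0617) was not called.

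In the mesoderm lists called rises outnumbered called falls, with 8 and 1 of 15 primitive streak genes tested and 7 and 1 of 17 presomitic genes. Other lists were mixed, or held more falls. Rises and falls were 1 and 4 of 16 BMP ligands and antagonists, 1 and 4 of 15 BMP targets and 2 and 4 of 16 WNT feedback targets. They were 4 and 4 of 24 Frizzled list genes, 5 and 4 of 18 EMT genes and 5 and 5 of 21 collagens. Among mesoderm and signalling genes picked out here the difference of differences was 7.92 for CYP26A1, 5.64 for FOXC1, 3.15 for DLL3, 5.46 for APLNR, 8.12 for RSPO3, 2.41 for WNT5A, 4.82 for SPRY1, 2.93 for LEF1, 3.87 for FZD7, 2.72 for BMP2, 3.79 for CDX1 and 2.88 for LIFR. For the EMT factors ZEB2 and SNAI2 it was 4.79 and 4.14, and for COL5A2 3.33. CDX1 (7.51) and SNAI2 (6.38) moved most without DE(a)-DE(b) replicate 1. It was -3.25 for TBX3, -2.40 for VEGFA, -2.24 for SEMA3E and -3.63 for PLXNA4. PLXNA4 was not called without PPS-24h replicate 2 (edgeR adjusted p = 0.0654).

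Among genes listed under 1 identifier and over 10 CPM, the 5 highest values were those of ARSF (13.41), AL139300.1 (12.95), CER1 (12.89), RFPL2 (11) and LRRTM1 (9.28), and the 5 lowest those of GABRA4 (-11.47), CXCR4 (-8.42), ADAMTS18 (-7.49), RNASE1 (-7.42) and GADD45G (-7.39). Where a condition had 3 counts or fewer in both libraries, as for ARSF, AL139300.1, RFPL2, GABRA4, RNASE1, HHEX, LEFTY1 and CDX1, the fitted value depends on the prior count and is not a bound. Without DE(a)-DE(b) replicate 1 that of AL139300.1 was 21.63, and without DE(a)-DE(b) replicate 2 GABRA4 was not called (edgeR adjusted p = 1).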

How the results depend on the processing

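The number of genes called in the comparison of PPS-DE(b) with DE(a)-DE(b) stayed within 1.5 times of 3107 with RLE size factors (3096), no filter on low counts (3431), a fit of the 4 libraries compared (2152) or of the 8 DE(b) libraries (3186), and DESeq2 (3614). It was 740 when the fold change was tested against at least 2, and 1563 to 2999 when 1 library was left out, where the lone remaining library is assumed to vary like the other conditions. Without PPS-DE(b) replicate 1 it was 1563, without replicate 2 1926, and without DE(a)-DE(b) replicate 2 1639. At 24 h the count was 2439 with the libraries compared alone, 827 against a fold of at least 2, and 2190 to 3323 with 1 library left out, 2317 without PPS-24h replicate 2 and 2190 without DE(a)-24h replicate 1. For the difference of differences it was 2004, 669 and 2056 to 3896, with 2367 without PPS-DE(b) replicate 1, 2056 without DE(a)-DE(b) replicate 2 and 2150 without PPS-24h replicate 2. Of members of the gene lists, 256 were called, 145 against a fold of at least 2, and 181 to 228 with 1 library left out. With a replicate block the 3 counts were 3863, 4823 and 4844, and 283 list members were called; the replicate numbers share no stated origin, and all 278 called genes named in the main comparison were called with the block.

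No gene called at 48 h or at 24 h changed direction under any alternative run. Of the genes called in the difference of differences, 1 had the opposite sign without PPS-DE(b) replicate 1, 2 without DE(a)-DE(b) replicate 1, 1 without DE(a)-DE(b) replicate 2 and 1 without DE(a)-24h replicate 1, and 0 were called there with that sign. Of the 278 named genes called, 3 were not called with DESeq2, 1 with RLE size factors, 7 without a filter, 118 against a fold of at least 2, 21 in the fit of the DE(b) libraries and 33 in that of the libraries compared. Leaving out 1 library lost 83 (PPS-DE(b) replicate 1), 44 (PPS-DE(b) replicate 2), 45 (DE(a)-DE(b) replicate 1) and 63 (DE(a)-DE(b) replicate 2). Those lost by DESeq2 included HOXC9 and FGF20. The cause was not tested. With 2 libraries a condition, a gene that was not called is not shown to be equal.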
